A study of Mus musculus with 61 samples.

Results

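The C/EBP factor genes Cebpa, Cebpb, Cebpd, Cebpe and Cebpg encode the CCAAT/enhancer-binding proteins, and they were followed here by their chromatin in mouse brain. A window of the microglia table belonged to them if the deposited annotation named one of the 5 genes as the gene of its nearest transcription start site (TSS). This took 96 of 133129 windows and 5 of 19040 named genes, with 28 windows for Cebpa, 7 for Cebpb, 20 for Cebpd, 14 for Cebpe and 27 for Cebpg. SALL1, SMAD4 and p300 peaks and the acetylated regions of sorted nuclei were added where they overlapped those windows or the gene bodies with 50 kb on each side by at least 1 bp. A nearest gene is an annotation only, and no measurement here ties a window to a gene.

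ChIP-seq for acetylated histone H3 lysine 27 (H3K27ac), which marks promoters and enhancers in use, was compared between EKO mice and wild-type (WT) mice of strain C57/Bl6. EKO mice were homozygous for a germline CRISPR/Cas9 deletion within the microglial Sall1 enhancer, present in every cell of the animal, and WT mice carried the intact enhancer. EKO and WT mice were males aged 8 to 12 weeks. The comparison asked what the loss of SALL1, a zinc finger transcription factor of microglia that some other brain cells also make, did to the acetylation of microglial regulatory elements. Sorted microglia (labelled CD45+ CD11b+ CX3CR1+) gave 2 EKO and 2 WT libraries. Nuclei sorted as NeuN+ (from neurons), Olig2+ (from the oligodendrocyte lineage) and PU1+ (from microglia) gave 2 EKO and 2 WT libraries each. SALL1 ChIP-seq had 2 libraries each of EKO, of the wild-derived strains PWK and Spret, and of C57/Bl6 WT microglia. SMAD4 ChIP-seq had 2 libraries of each of 2 groups, one labelled mutant and one labelled WT, and p300 ChIP-seq had 3 WT libraries. Some labels are in conflict. The mutant SMAD4 libraries carry a title of conditional SMAD4 deletion but a description and inputs of EKO, and are called the libraries labelled mutant. The p300 group joins 1 library of sorted microglia with 2 libraries of PU1+ nuclei, and the study's text places SALL1 and some H3K27ac libraries in sorted nuclei where the labels say microglia. Nothing states that libraries of a group came from separate animals, so p-values measure only the spread between these libraries. In mixed chromatin, a lower share of one kind of cell and less acetylation per cell cannot be told apart.

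C/EBP proteins are basic leucine zipper (bZIP) factors that bind DNA as dimers, with themselves or with other bZIP proteins, at palindromic sites related to TTGCNNAA. C/EBPα and C/EBPβ drive granulocyte and macrophage genes and work beside PU.1, the master regulator of myeloid cells. C/EBPδ rises in the acute phase response together with C/EBPβ, C/EBPε is needed for the late stages of granulocyte maturation, and C/EBPγ lacks a transactivation domain and acts through its partners.

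Library 1 of the EKO microglia stood apart. Its median window level was 6.41 on the log2(normalized tags + 1) scale, against 4.95 in EKO library 2 and 5.57 and 5.20 in WT libraries 1 and 2. Window values are tags scaled to 10000000 tags per library, and the tags in windows, which overlap and can count a tag more than once, came to 97.2% and 33.2% of library depth in EKO and 54.9% and 39.4% in WT. They summed to 9681699 and 4447485 tags in EKO libraries 1 and 2 and to 13372773 and 3954550 tags in WT libraries 1 and 2. The values were therefore quantile normalized before limma was fitted to the 55285 windows with a mean above 16 tags, and a window was called at an adjusted p below 0.05 and a fold above 2. Quantile normalization left a median log2 difference over all windows of -0.03, against 0.28 for the values as deposited. The deletion was visible at the Sall1 TSS, where the window had 0 and 2.24 tags in EKO microglia and 241.4 and 108.5 tags in WT microglia (log2 -6.53, SE 0.52, limma adjusted p = 2.34e-08).

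Some elements named below are shown by sequence. They are 4 SALL1 peaks of WT microglia, with 3 around Cebpg and the peak behind Cebpd. Only the peak at Cebpg -9563 lies in a called window, and the other called windows are not shown. All are read 5′ to 3′ on the plus strand of mm10, the reverse of the Cebpg gene. Capitals mark matches on either strand to TTGCNNAA (C/EBP), AGAGGAAG (PU.1 core), CAGACA and GTCTAGAC (SMAD), TGANTCA (AP-1), TGACGTCA (cAMP response element, CRE), TTCNNNGAA (STAT) or CTA and TAG with 4 free bases between (MEF2), and matches to the loose NF-kB shape, GGG and CC with 5 free bases between, were left in lower case.
Cebpg -9563, chr7:35065993-35066266: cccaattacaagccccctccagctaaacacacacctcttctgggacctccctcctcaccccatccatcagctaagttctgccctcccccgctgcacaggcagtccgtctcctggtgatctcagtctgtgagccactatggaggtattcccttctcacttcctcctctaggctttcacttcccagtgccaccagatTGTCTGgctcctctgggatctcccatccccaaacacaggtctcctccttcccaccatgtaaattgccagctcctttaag
Cebpg -699, chr7:35057156-35057374: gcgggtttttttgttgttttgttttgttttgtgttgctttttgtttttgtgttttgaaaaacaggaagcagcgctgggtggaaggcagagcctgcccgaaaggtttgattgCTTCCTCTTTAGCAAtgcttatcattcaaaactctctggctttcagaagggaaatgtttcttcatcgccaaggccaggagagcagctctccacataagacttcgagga
Cebpg +29404, chr7:35027030-35027294: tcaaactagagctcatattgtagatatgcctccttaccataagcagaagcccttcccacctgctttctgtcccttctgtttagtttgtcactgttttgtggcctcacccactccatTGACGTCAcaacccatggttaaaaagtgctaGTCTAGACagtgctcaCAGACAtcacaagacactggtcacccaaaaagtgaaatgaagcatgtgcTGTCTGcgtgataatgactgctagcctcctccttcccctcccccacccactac
Cebpd +2851, chr16:15890029-15890246: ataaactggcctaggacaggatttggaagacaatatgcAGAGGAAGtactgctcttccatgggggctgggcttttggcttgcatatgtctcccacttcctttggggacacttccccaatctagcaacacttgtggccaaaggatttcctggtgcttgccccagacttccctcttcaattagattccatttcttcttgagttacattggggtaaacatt
The numbers after the gene names are the distances in bp from the peak centre to the TSS, negative upstream. The peak at -9563 held 1 SMAD match and no PU.1 core. The promoter-proximal peak at -699 joined a PU.1 core to a C/EBP match through 1 shared letter. The peak at +29404 held a CRE, a SMAD palindrome and 2 CAGACA matches. A CRE was found in the central 200 bases of 0.188% of 15396 WT SALL1 peaks and the palindrome in 0.292%, and each was in 1 of the 19 peaks at the C/EBP factor genes. A PU.1 core was in 3 of the 19, against 15.2% of all WT SALL1 peaks, a C/EBP match in 3, against 13.6%, CAGACA in 5, against 19.4%, and AP-1 in 4, against 7.55%. A match describes the letters only.

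Across the C/EBP factor genes, H3K27ac changed at few windows. Of 96 windows 58 passed the filter on low values, and 1 was called higher and 4 were called lower in EKO microglia, where 8.68% and 7.56% of all 55285 tested windows were called. All but 1 of these 5 calls lay around Cebpg. The promoters of Cebpa, Cebpb, Cebpe and Cebpg were not called, and the Cebpd TSS window passed the p threshold at a fold below 2. At an adjusted p below 0.05 and any fold, 4 member windows were higher and 7 were lower, against 12.1% of all windows each way. The median log2 difference was -0.08 over the 58 windows and -0.03 over all tested windows. The filter ran close to some members, with means of 16.05 tags just inside it and 15.98 just outside, and the other 38 windows were not tested.

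Summed over all windows of a gene, none of the 5 genes was called, where 5.1% of 14595 gene sums were called higher, 3.83% lower and 8.93% in either direction. Cebpg carried the most acetylation and ranked 58 of all genes by mean sum. Its sums were 7075 and 2339 tags in EKO microglia and 4763 and 2769.8 tags in WT microglia (log2 -0.02, SE 0.08, limma adjusted p = 0.92). Cebpd had 2023 and 785 tags in EKO and 1044 and 713 tags in WT (log2 0.25, SE 0.11, 95% interval 0.03 to 0.48, limma adjusted p = 0.10). Cebpa had 1972 and 632 tags in EKO and 1234 and 772 tags in WT (log2 -0.10, SE 0.11, limma adjusted p = 0.55). Cebpb had 724 and 295 tags in EKO and 415 and 314.5 tags in WT (log2 0.05, SE 0.15, limma adjusted p = 0.87). Cebpe was the lowest, with 538 and 172 tags in EKO and 391 and 263 tags in WT (log2 -0.38, SE 0.16, limma adjusted p = 0.083). EKO library 1 had the highest value and the groups overlapped at all 5 genes. By unadjusted p below 0.05, 2 of the 5 sums (Cebpd and Cebpe) passed in limma, and 1 passed in edgeR and 1 in DESeq2. Over all 14595 gene sums, 4855 passed so in limma, 4637 in edgeR and 3876 in DESeq2, so these counts are no result about the 5 genes. The sums of Cebpa and Cebpg changed sign with the values as deposited, to 0.19 and 0.16. A sum grows with the number of windows, so the sums are not levels per length.

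**Figure D1:**
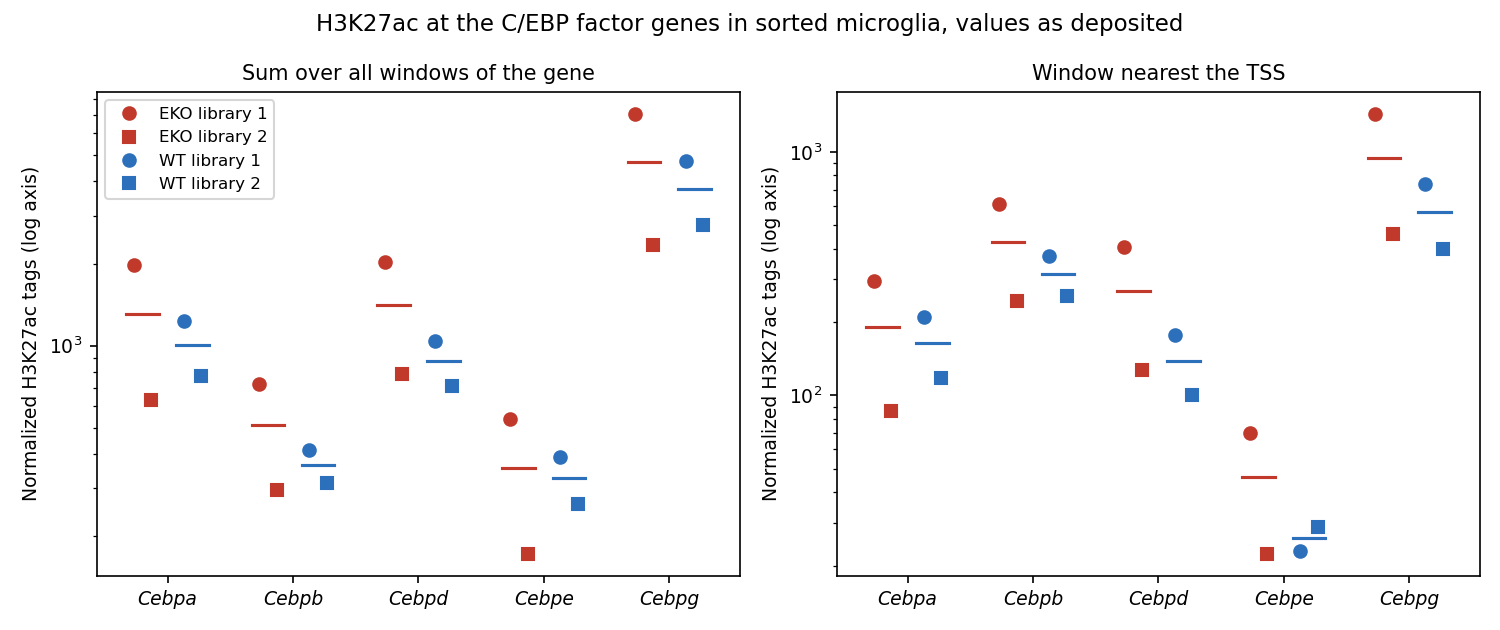
Normalized H3K27ac tags as deposited (log axis) in each microglia library, EKO left of WT, summed over all windows of a gene (left) and in the window nearest the TSS (right); short lines are the mean of the 2 libraries. EKO library 1 is the highest and EKO library 2 the lowest or near it for most genes, and Cebpg has the highest sum in every library.

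Cebpg, the partner factor without a transactivation domain, spans chr7:35046422-35056566 on the minus strand, with Pepd downstream and Cebpa 62727 bp upstream. Its promoter was the most acetylated window of the family, and it did not fall. The window at -74 had 1430.2 and 461 tags in EKO microglia and 736 and 400.1 tags in WT microglia (log2 0.25, SE 0.11, limma adjusted p = 0.12). The next window, at +458 in intron 1, had 1043 and 346 tags in EKO and 501 and 311 tags in WT and was 0.32 higher on the log2 scale (SE 0.11, limma adjusted p = 0.0426), below the fold of 2. In these windows the higher EKO value was above the higher WT value and the lower EKO value above the lower WT value, but the groups overlapped.

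About 10 kb upstream of Cebpg, H3K27ac fell. The window at -9563 had 269 and 90.4 tags in EKO microglia and 415 and 173 tags in WT microglia (log2 -1.03, SE 0.19, limma adjusted p = 0.000364). EKO library 1 was above WT library 2 there, so the values as deposited overlapped. The windows at -9816 and -10253 share sequence with it and were 0.87 and 0.86 lower on the log2 scale (limma adjusted p = 0.00189 and 0.00389), at folds below 2. At -10253 edgeR and DESeq2 on recovered tags gave log2 differences of -1.008 and -1.005 (adjusted p = 0.000351 and 0.00462) and so called it. These 3 windows count as 1 element, because overlapping windows share tags.

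Farther upstream, windows at -29466 and -30184 fell. At -30184 there were 34.1 and 5.23 tags in EKO and 53.4 and 31.9 tags in WT (log2 -2.002, SE 0.45, limma adjusted p = 0.00278). At -29466 there were 37.1 and 4.48 tags in EKO and 46.4 and 24.9 tags in WT (log2 -1.81, SE 0.51, limma adjusted p = 0.0137). The pair overlap each other, hold no listed SALL1, SMAD4 or p300 peak, and lie within 50 kb of Cebpa as well. The 1 window called higher, at +15084 in intron 13 of Pepd (which encodes the dipeptidase prolidase), had 66.2 and 17.2 tags in EKO and 7.39 and 10.9 tags in WT (log2 1.29, SE 0.46, limma adjusted p = 0.0449). It was also the only called window whose groups did not overlap as deposited. With DESeq2 on recovered tags its adjusted p was 0.0595, and that of the window at -29466 was 0.0837, while edgeR gave 0.00956 and 0.0135. The window at -24664, between these elements, had 139 and 35.8 tags in EKO and 92.0 and 47.8 tags in WT (log2 -0.16, limma adjusted p = 0.69).

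Downstream, intron 11 of Pepd holds the strongest distal acetylation near Cebpg. The window at +29376, around the SALL1 peak with the CRE, had 722 and 262 tags in EKO microglia and 495 and 336 tags in WT microglia (log2 -0.18, SE 0.12, limma adjusted p = 0.30). The window at +27849 had 445 and 178 tags in EKO and 252 and 176 tags in WT (log2 0.16, limma adjusted p = 0.48). None of the 5 windows between +27849 and +30447 passed the test.

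**Figure D2:**
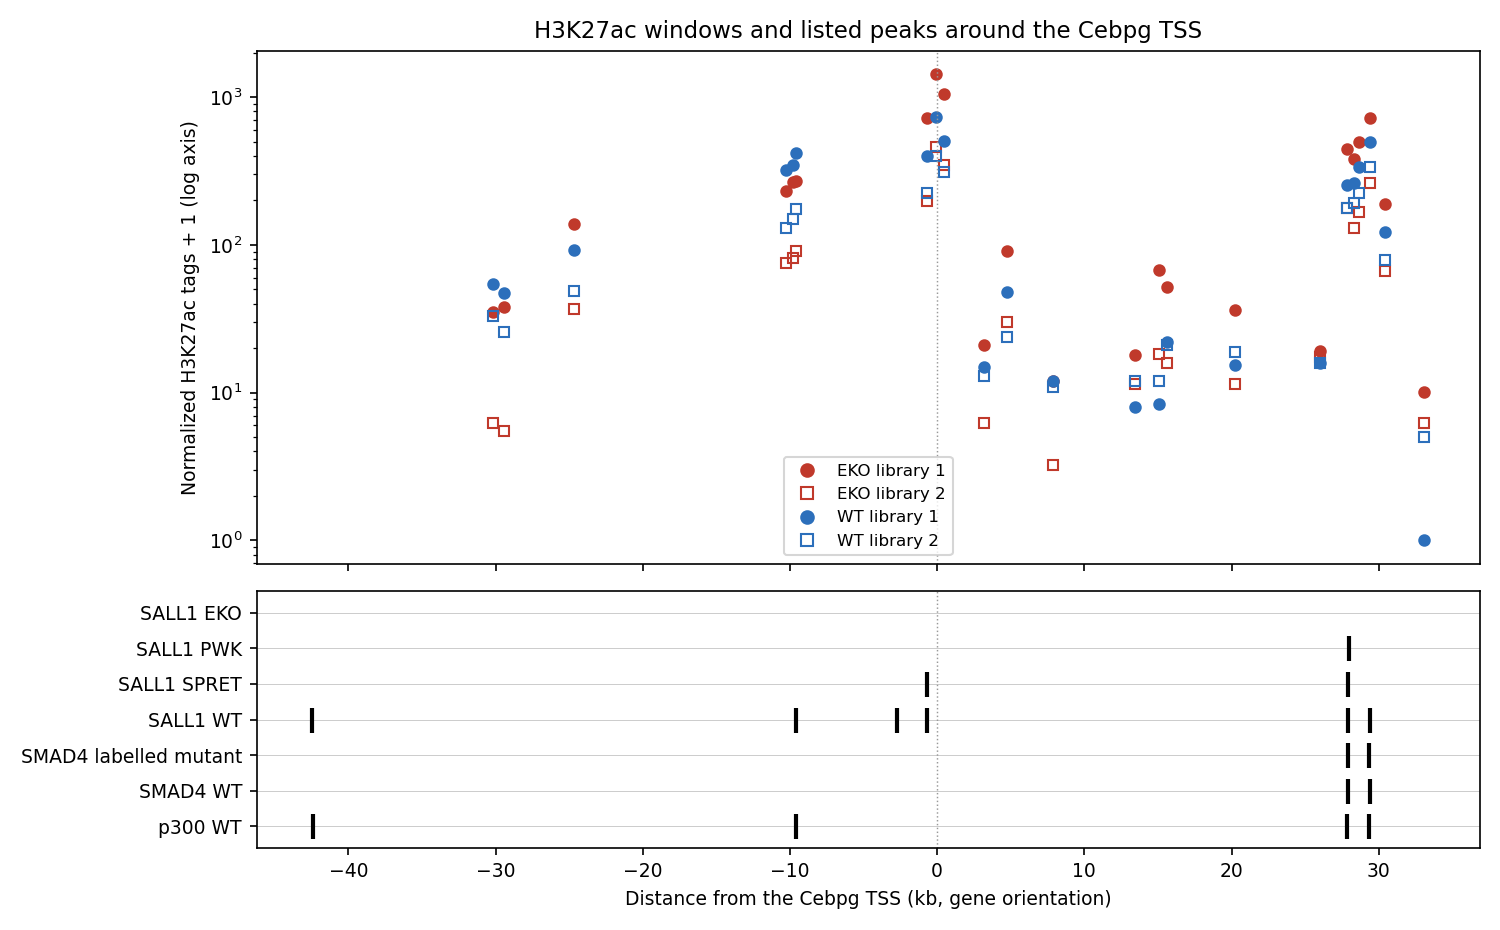
Top: normalized H3K27ac tags plus 1 (log axis) of Cebpg windows in the EKO (red) and WT (blue) microglia libraries against distance from the Cebpg TSS in kb. Bottom: centres of listed peaks of each group. EKO symbols lie below the WT symbols of the same shape near -30 and -10 kb, and SALL1, p300 and SMAD4 peaks meet near +28 and +29 kb.

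Because EKO library 1 was high at most windows, each Cebpg window was also set against the Cebpg TSS window of its own library, a comparison chosen after the values were seen. The window at -9563 held 18.8% and 19.6% of the TSS window in EKO microglia, against 56.4% and 43.3% in WT microglia. The window at -30184 held 2.39% and 1.13% in EKO and 7.25% and 7.96% in WT. The window at +15084 held 4.63% and 3.72% in EKO and 1.00% and 2.74% in WT. On this scale the groups did not overlap at any of these called windows. The window at +29376 was also lower, with 50.5% and 56.8% in EKO and 67.2% and 84.1% in WT. These shares fall where the TSS window is higher in EKO, and the Cebpg TSS window was 0.25 higher on the log2 scale. Of 19 Cebpg windows, 12 lay below WT without overlap and 1 above, where 28.7% and 25.3% of 36379 windows of all genes did. For Cebpd 7 of 14 lay below and 0 above, for Cebpe 3 of 5 and 0, for Cebpa 1 and 3 of 14, and the 1 Cebpb window overlapped.

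**Figure D3:**
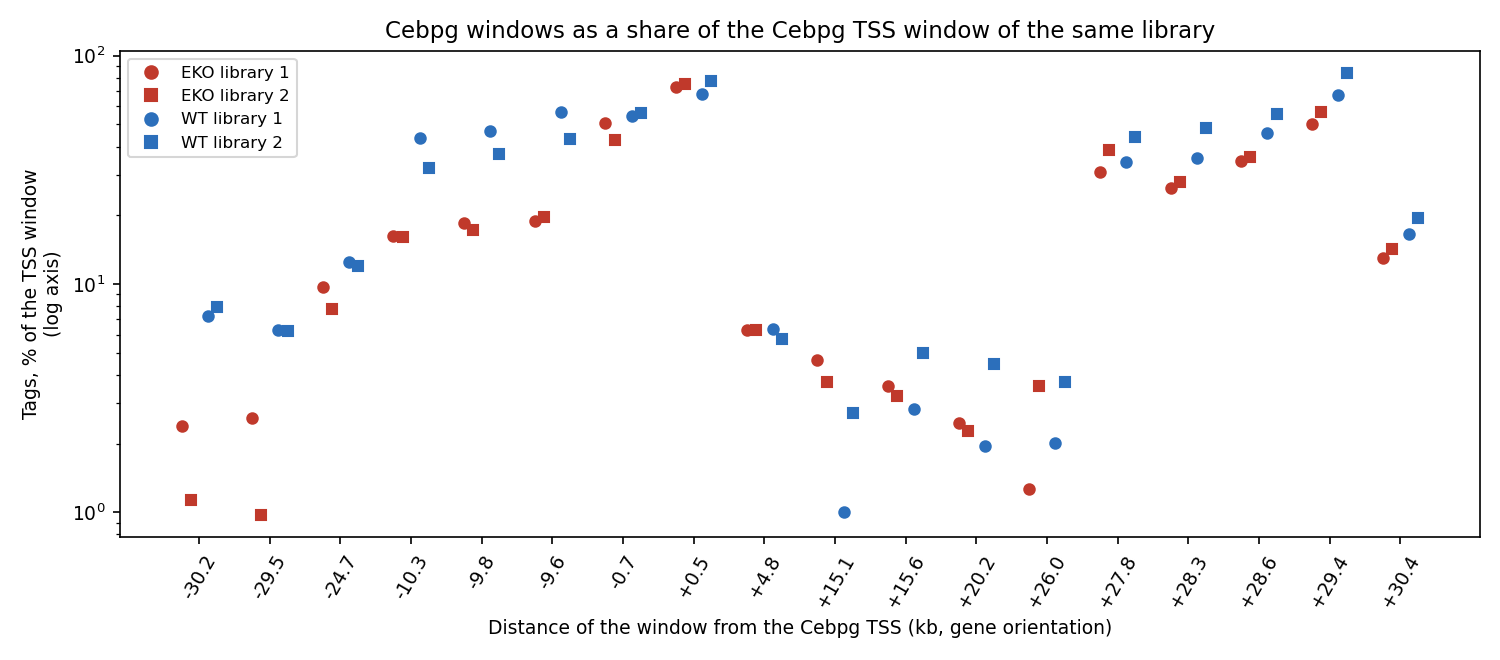
Tags of tested Cebpg windows as a percentage of the Cebpg TSS window of the same library (log axis), in order of distance from the TSS in kb, EKO (red) left of WT (blue). The EKO libraries lie at 18.8% and 19.6% and the WT libraries at 56.4% and 43.3% in the window at -9.6 kb, and the order is the other way at +15.1 kb.

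Cebpa, which starts granulocyte and macrophage programs, lies at chr7:35119293-35121928, and none of its 15 tested windows passed the test. The highest window, at -717, had 361 and 99.3 tags in EKO microglia and 259 and 135 tags in WT microglia (log2 -0.21, SE 0.17, limma adjusted p = 0.40). The TSS window at -136 had 295 and 86.6 tags in EKO and 210.2 and 118 tags in WT (log2 -0.21, limma adjusted p = 0.42), and both windows moved to 0.02 with the values as deposited. The smallest p was at -1244, with 190 and 58.2 tags in EKO and 158 and 82.6 tags in WT (log2 -0.35, limma adjusted p = 0.23). In all 3 windows EKO library 1 was the highest and EKO library 2 the lowest. The Cebpa windows ranged in log2 difference from -0.45 to 0.77.

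Cebpb, the factor that works with C/EBPα and drives acute phase genes, lies at chr2:167688915-167690432 and had only 2 tested windows, both at its promoter. At +29 there were 612 and 243 tags in EKO microglia and 372 and 256 tags in WT microglia (log2 0.06, SE 0.13, limma adjusted p = 0.78). At -628 there were 66.2 and 37.3 tags in EKO and 29.6 and 32.8 tags in WT (log2 0.35, SE 0.32, limma adjusted p = 0.47). The values at -628 did not overlap as deposited, which was so for 17.8% of all windows with EKO above WT and for 6 of the 58 member windows. The other 5 Cebpb windows had means of 7.37 tags or lower and were not tested. At the SALL1 peak at +1509, inside the Cebpb gene, the annotation names A530013C23Rik, a gene 327 bp away. Acetylation there is left out of the Cebpb windows and sum, which cover only part of the locus.

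Cebpd, the acute phase partner of Cebpb, lies at chr16:15887286-15889545, with the 3′ end of Spidr (a scaffold of DNA repair) running over its own end from the other strand. Its windows at -89 and +400 passed the adjusted p but not the fold. The other promoter window, at -607, passed neither (log2 0.54, limma adjusted p = 0.096). The groups overlapped as deposited in each of these windows. The TSS window at -89 had 406 and 128 tags in EKO microglia and 177 and 101 tags in WT microglia (log2 0.54, SE 0.17, limma adjusted p = 0.0232). The window at +400 had 303 and 137 tags in EKO and 154 and 89.6 tags in WT (log2 0.57, SE 0.19, limma adjusted p = 0.0346). With edgeR and DESeq2 on recovered tags the adjusted p was 0.0578 and 0.20 at -89 and 0.066 and 0.21 at +400, and with median scaling it was 0.11 at -89 and 0.10 at +400. The element behind the gene, around the SALL1 peak at +2851, had 147 and 59.7 tags in EKO and 92.8 and 56.7 tags in WT in the window at +2841 (log2 0.13, SE 0.23, limma adjusted p = 0.73). Far downstream, in intron 9 of Spidr at +69302, there were 34.1 and 18.7 tags in EKO and 44.3 and 35.8 tags in WT (log2 -0.98, SE 0.34, limma adjusted p = 0.0432). Both EKO values lay below both WT values there, as in 6.12% of all windows and 2 of the 58 member windows.

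Cebpe, the factor of late granulocyte maturation, lies at chr14:54710363-54712174 and had the least acetylation of the family. Most of its windows lie within or near Slc7a8, an amino acid transporter gene 10041 bp away. The TSS window at -368 had 70.3 and 22.4 tags in EKO microglia and 23.0 and 28.9 tags in WT microglia (log2 0.26, SE 0.34, limma adjusted p = 0.64). The window at -12639, in exon 10 of Slc7a8, was the 1 call, with 19.1 and 7.47 tags in EKO and 27.1 and 18.9 tags in WT (log2 -1.44, SE 0.50, limma adjusted p = 0.0413). Its adjusted p was 0.0739 with edgeR and 0.22 with DESeq2. The highest window, at -21605 in Slc7a8, had 112 and 42.6 tags in EKO and 135 and 57.7 tags in WT (log2 -0.58, SE 0.25, limma adjusted p = 0.099).

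**Figure D4:**
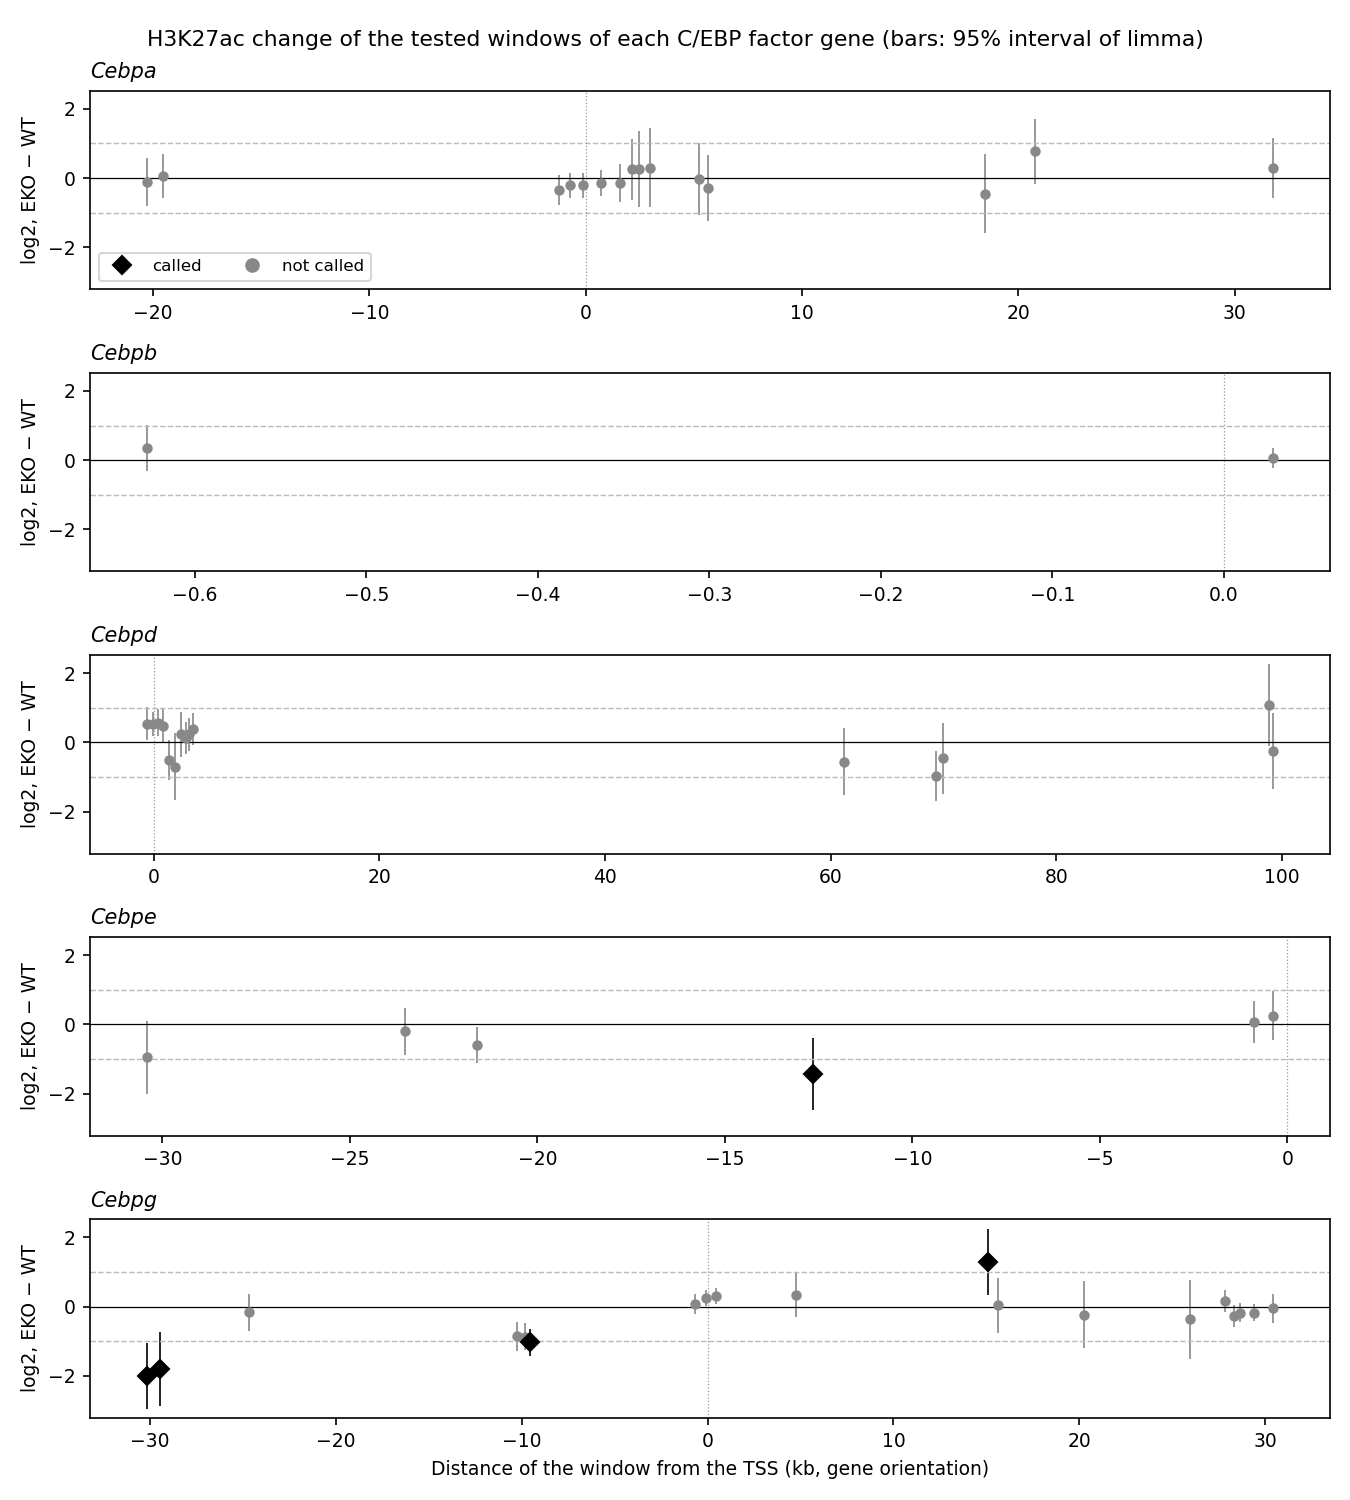
Log2 difference (EKO minus WT, limma on quantile-normalized log2 tags) of tested windows of the 5 genes against distance from the TSS in kb; vertical lines are 95% intervals, black diamonds are called windows and dashed lines mark a fold of 2. The 4 windows called lower lie upstream of Cebpg and Cebpe and the 1 called higher lies at +15 kb from Cebpg.

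The calls around Cebpg and Cebpe were lost with the values as deposited and, but for that at Cebpg -9563 without WT library 2, in the fits with 3 libraries, while all 5 windows kept their direction in each of them. With the values as deposited, 0 of the 58 windows were called by limma and 0 had an unadjusted p below 0.05, against 521 calls over all windows. Without EKO library 1 there were 0 calls among the 58 windows and 0 among all windows, and without EKO library 2 there were 0 among the 58 and 3198 among all. Without WT library 1 there were 0 and 0 calls, and without WT library 2 there were 3 and 2133. Each of these fits leaves 1 library in a group, so counts by unadjusted p are not given for them. The fits without EKO library 1 or WT library 1 called nothing in the whole table and so say nothing of single windows. With the values as deposited the log2 difference was -0.78 at Cebpg -9563, -1.51 at -30184, -1.28 at -29466, 1.80 at +15084 and -0.86 at Cebpe -12639. With 1 library left out it ran from -1.37 to -0.69 at Cebpg -9563, from -2.77 to -1.37 at -30184, from -2.75 to -0.97 at -29466, from 0.93 to 1.60 at +15084 and from -1.56 to -1.25 at Cebpe -12639. On recovered tags of all 4 libraries edgeR called 5 and DESeq2 3 of the 58 windows, where 17.6% and 12.9% of all tested windows were called. The 5 were the 4 called Cebpg windows and that at -10253, and the 3 were those at -9563, -10253 and -30184. Low tag numbers (1 to 30) were multiples of 3 in 69.3% and 31.3% of cases in EKO libraries 1 and 2 and in 41.5% and 30.7% in WT libraries 1 and 2, where an even spread over whole numbers gives 33.3%. Tags of EKO library 1 thus often came in threes, whereas edgeR and DESeq2 take each recovered tag as 1 count, and the effect of this on their p-values was not tested.

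SALL1 peaks were listed at all 5 genes in WT microglia and at none of them in EKO microglia. WT microglia had 19 of 15410 peaks there, of which Cebpa had 3, Cebpb 1, Cebpd 4, Cebpe 5 and Cebpg 7, with 1 peak in the shared flank of Cebpa and Cebpg. The EKO list had 0 of 7 peaks there, so the absence holds for nearly the whole genome in that list. Scores were 183 at Cebpg +27928 and 57 (rank 6259) at Cebpg -9563, 146 each at Cebpd +2851 and at -42494 from Cebpe within Slc7a8, and 127 at Cebpa -20265. Of 58 tested member windows, 16 (27.6%) held a WT SALL1 peak, against 26.5% of all tested windows. Each list pools the libraries of a group, so these are counts without a test. The WT lists of SALL1 and of SMAD4 used here are each shorter than the number of peaks that the study describes. Counts, overlaps and absences hold for the lists used.

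SALL1 peaks of the wild-derived strains lay at sites of the C57/Bl6 list. PWK had 5 of 3627 peaks at these genes and Spret 3 of 2245, and all 5 and all 3 overlapped a C57/Bl6 peak. The site at Cebpg +27928 was in all 3 lists. The promoter site at Cebpg -699 was in the Spret list with a score of 17 and rank 1288. Neither wild-derived list had a peak at Cebpa or Cebpb.

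SMAD4, the shared partner of the receptor-activated SMADs, had 7 of 2333 peaks at these genes in the libraries labelled mutant and 10 of 4024 in WT. Of the 7 peaks of the libraries labelled mutant, 6 overlapped a WT peak. The highest score at these genes in both lists was at Cebpg near +29.4 kb, with 167 (rank 138) in the libraries labelled mutant and 130 (rank 234) in WT, on the SALL1 peak with the palindromic SMAD match. The next, near +27.9 kb, had scores of 128 and 90 in the libraries labelled mutant and in WT. Scores of separate lists are not on one scale.

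p300, an acetyltransferase and co-activator, had 19 of 9177 peaks at these genes in WT. Promoter peaks lay 31 bp from the Cebpa TSS (score 258, rank 218), 72 bp from the Cebpb TSS (score 82) and 918 bp upstream of the Cebpe TSS (score 57). The lists had no p300 peak at the Cebpd or Cebpg promoter, although the Cebpg promoter was the most acetylated window of the family. Of 19 SALL1 peaks in WT, 9 overlapped a p300 peak and 5 a SMAD4 peak of WT. The Cebpg site at -9563 had a p300 peak with a score of 65. Of the tested member windows 31% held a p300 peak and 19% a SMAD4 peak of WT, against 20.6% and 11.1% of all tested windows, and these windows overlap one another.

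In sorted nuclei, PU1 lists had an acetylated region within 1 kb of the TSS of all 5 genes in all 4 libraries. NeuN lists had one for 4 of the 5 genes, all but Cebpe, in all 4 libraries, and Olig2 lists had one for Cebpd and Cebpg in 3 of 4 libraries. Tags of listed regions within 5 kb of the TSS were summed in each library, and a list without a region gives 0, which does not show an absence of signal. PU1 library 1 of WT was weak throughout, with 11149 regions against 25990 to 36057 in the other PU1 lists. At Cebpa, PU1 nuclei had 1056 and 897 tags in EKO and 185 and 1071 tags in WT. NeuN nuclei had 53.5 and 79.2 tags at Cebpa in EKO and 70.0 and 74.0 tags in WT, and Olig2 nuclei had no listed region. At Cebpb, PU1 nuclei had 481 and 399 tags in EKO and 71.2 and 487 tags in WT, NeuN nuclei had 175 and 221 tags in EKO and 206 and 261 tags in WT, and Olig2 nuclei again had none.

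Cebpd and Cebpg were the members with listed regions near the TSS in all 3 kinds of nuclei. At Cebpd, PU1 nuclei had 1249 and 856 tags in EKO and 163 and 1071 tags in WT. NeuN nuclei had 55.7 and 75.6 tags at Cebpd in EKO and 12.2 and 60.2 tags in WT, and Olig2 nuclei had 20.1 and 38.3 tags in EKO and 18.8 and 0 tags in WT. At Cebpg, PU1 nuclei had 782 and 667 tags in EKO and 115 and 739 tags in WT. NeuN nuclei had 97.1 and 114 tags at Cebpg in EKO and 150 and 137 tags in WT, and Olig2 nuclei had 109 and 73.6 tags in EKO and 88.7 and 0 tags in WT. Cebpe was low in PU1 nuclei, with 92.9 and 84.1 tags in EKO and 38.6 and 276 tags in WT, and lower in NeuN nuclei, with 42.6 and 24.0 tags in EKO and 26.7 and 31.4 tags in WT. EKO and WT values of PU1 nuclei overlapped at all 5 genes. Each list was normalized on its own and holds called regions only, so no test was run across lists.

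**Figure D5:**
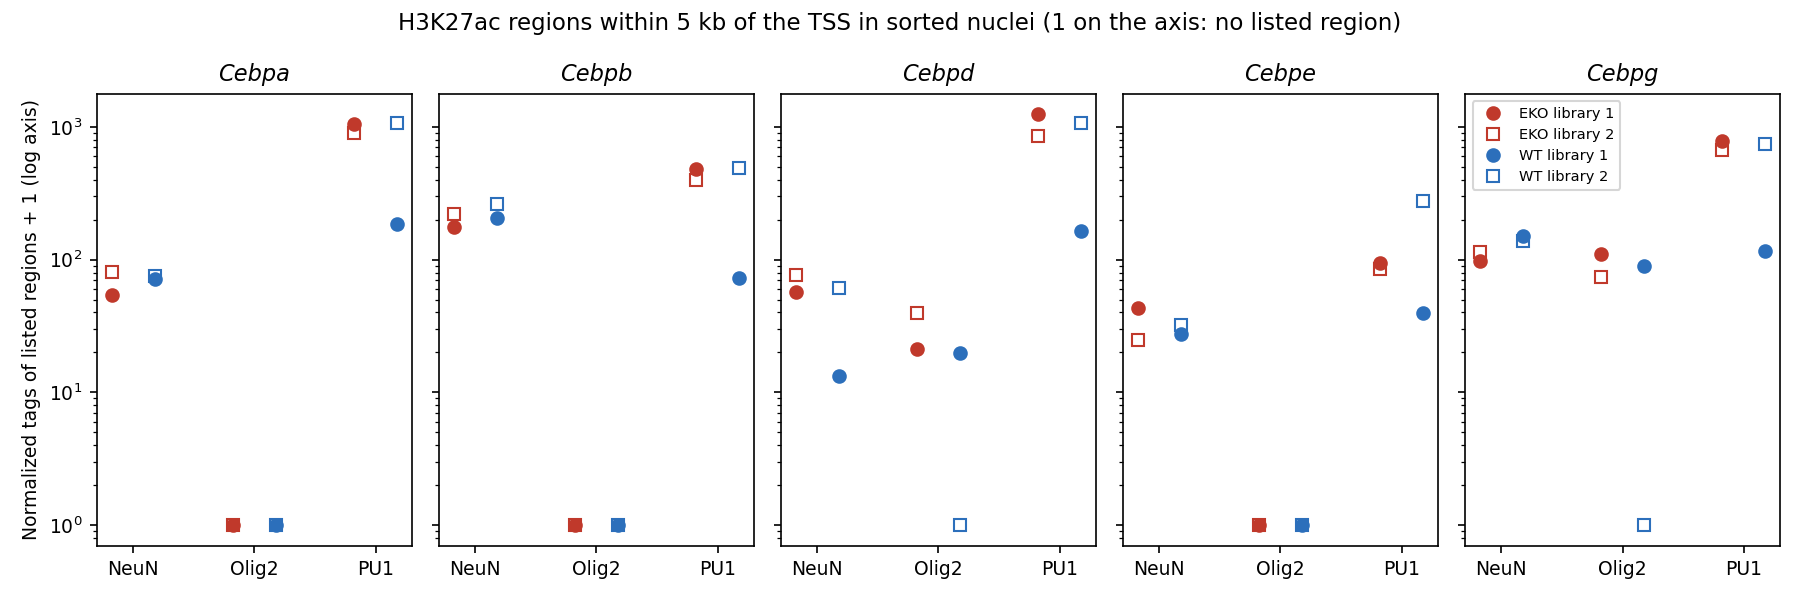
Normalized H3K27ac tags plus 1 (log axis) of listed regions within 5 kb of each TSS in NeuN, Olig2 and PU1 nuclei, with EKO libraries left of WT libraries; a value of 1 means that the list had no region there. PU1 nuclei are highest at every gene in EKO, and WT library 1 of PU1 nuclei, a weak library throughout, lies below the other PU1 libraries.

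The elements that changed in sorted microglia were partly seen in the nuclei lists. The Cebpg element at -9563 lay in a listed region of PU1 nuclei alone, with 134.8 and 150.1 tags per kb in EKO and 37.0 and 119.7 tags per kb in WT. That region is wider than the element, and its EKO values were not below those of WT. At -30184 PU1 nuclei had no region in EKO and 1 of 16.7 tags per kb in WT library 2. NeuN nuclei also had regions there, of 15.0 tags per kb in EKO library 1 and 25.4 tags per kb in WT library 2. At +15084 PU1 nuclei had a region in WT library 2 alone (34.1 tags per kb) and Olig2 nuclei had regions in WT alone (20.4 and 25.1 tags per kb), while sorted microglia were higher in EKO there. At Cebpe -12639 PU1 nuclei had 27.6 tags per kb in EKO library 1 and 59.2 in WT library 2, and no region in the other libraries. The Cebpg window at +29376 lay in the strongest PU1 regions of these, with 375 and 246 tags per kb in EKO and 90.6 and 266 tags per kb in WT.

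Within 50 kb of Cebpb, Olig2 nuclei carried far more acetylation than at its TSS. Their listed regions there held 2041 and 2108 tags in EKO and 1727 and 1666 tags in WT. Nearly all of it was 1 broad region about 33 kb upstream, over Tmem189, of 13824 and 14316 bp in EKO and 14215 and 15028 bp in WT. It held 2022 and 2074 tags in EKO and 1706 and 1634 tags in WT.

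Genes most like each member were taken over the 12 nuclei libraries, by Pearson correlation of log2 tags within 5 kb of the TSS among 15549 genes. They are given as a description, since the libraries differ in depth and in cell type and a list without a region counts as 0. Cebpa was most like Nfam1, Otulinl and Ifngr2 (r = 0.999 for each). Cebpb was most like Akap5, Cotl1 and Lyzl4 (r from 0.998 to 1.00). Cebpe was most like Ptp4a3, Kcnd1 and BC048562 (r from 0.992 to 0.993). Cebpg was most like Gm45095 (r = 1.00), which overlaps its promoter, and then Pgs1 and Gmfb (r = 0.981 and 0.978). Cebpd had the lowest values, with Eif2b4 and Snx17 at r = 0.959, which share 1 set of regions, and Rapgef1 at 0.950.

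For genes related to C/EBP function, counts of called windows are set beside the 8.68% called higher and 7.56% called lower among all tested windows, and a share near these is no result about a list. Of 12 relatives and bZIP partners, 74 windows were tested, and 2 (2.7%) were called higher and 7 (9.46%) lower (median log2 -0.10). Hlf, a circadian bZIP factor, had a window at -29024 with 31.1 and 13.4 tags in EKO microglia and 58.3 and 51.8 tags in WT microglia (log2 -1.76, limma adjusted p = 0.000524). Batf, which pairs with JUN and IRF proteins, was higher at its TSS, with 90.3 and 33.6 tags in EKO and 23.0 and 17.9 tags in WT (log2 1.07, limma adjusted p = 0.0178). Of 120 tested windows of 13 regulators and co-factors, 3 (2.5%) were called higher and 10 (8.33%) lower (median log2 -0.16). Socs3, the feedback inhibitor of STAT3 signalling, had a window at +29522 with 12.04 and 5.97 tags in EKO and 67.7 and 26.9 tags in WT (log2 -2.74, limma adjusted p = 0.000306). The gene sum of Batf was not higher (log2 -0.12, limma adjusted p = 0.55), while those of Hlf and Socs3 kept the direction of their windows (log2 -1.65 and -0.53).

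Of 26 myeloid genes known as C/EBP targets, 88 windows were tested, and 7 (7.95%) were called higher and 9 (10.2%) lower (median log2 -0.22). The co-receptor gene Cd14 had the smallest p, at +10848, with 19.1 and 6.72 tags in EKO microglia and 179 and 103 tags in WT microglia (log2 -4.00, limma adjusted p = 1.57e-08). Csf3r, the G-CSF receptor, had 88.3 and 52.3 tags in EKO and 252 and 146 tags in WT at +6235 (log2 -1.73, limma adjusted p = 1.55e-05). Csf2ra, the α chain of the GM-CSF receptor, was higher at -731, with 133 and 50.8 tags in EKO and 24.2 and 22.9 tags in WT (log2 1.46, limma adjusted p = 0.000722). These are single windows. The gene sum of Cd14 did not fall (log2 0.22, limma adjusted p = 0.23), while those of Csf3r and Csf2ra kept the direction (log2 -0.46 and 0.18). By gene sums, 3 of 16 target genes were called higher and 0 lower, 1 of 12 relatives each way, and 0 of 11 regulators either way, where 5.1% and 3.83% of all gene sums were called higher and lower. These lists were written with results of these data known.

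Markers of other cells moved in the same comparison. Against 8.68% and 7.56% of all windows, border macrophage markers had 12 of 22 tested windows called higher and 0 lower, with summed tags of 1690.2 and 652 in EKO microglia and 380.2 and 283 in WT microglia. Lymphocyte markers had 6 of 6 windows called higher, with 560.1 and 228 tags in EKO and 76.8 and 59.7 tags in WT. Neutrophil markers, of cells that use C/EBPε, had 2 of 2 tested windows called higher (of 14 windows in all), with 199.7 and 96.3 tags in EKO and 75.5 and 82.6 tags in WT. Of 4 tested gene sums of neutrophil markers, 2 were called higher and 1 lower. Microglia markers, a list that holds Sall1 itself, had 37 of 168 windows (22%) called lower and 2 higher, in Fcrls and Siglech (median log2 -0.52). The 37 include Sall1 windows, such as that at -352683 with 1 and 0 tags in EKO and 525 and 298 tags in WT. Their number was not counted, so the share of the other microglia markers cannot be read from the 22%. By gene sums 1 of 8 microglia markers was called lower, and this was Sall1 (log2 -4.11). The oligodendrocyte lineage markers had 8 of 17 windows called lower. Monocyte markers had 1 of 8 higher and 2 lower, the 1 tested neuronal window was not called and no astrocyte window was tested. Their part in the changes at Cebpg, Cebpd and Cebpe was not tested.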

How the data were processed

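H3K27ac, SALL1, SMAD4 and p300 ChIP-seq of mouse brain cells was used from 31 of 61 samples, and 30 input samples were not used here. Per the submitters' processing notes, the authors mapped reads to mm10 with Bowtie2 and used HOMER and DESeq2, with no versions given. The deposited microglia table holds a signal, H3K27ac tags scaled to 10000000 tags per library, in windows of 1 kb on merged open-chromatin peaks, with the nearest TSS annotated by the authors. Dividing by the step of 1 tag (1.00 and 0.747 normalized tags in EKO, 0.411 and 0.995 in WT) gave whole tags for 100% of values within a tolerance of 0.05 tags. The deposited nuclei lists give, for regions the authors called in each library, a normalized tag signal, a fold ratio over input of at least 4 and a p-value of the region against input, which was not used. For SALL1, SMAD4 and p300 the authors deposited 1 list of peaks for each group, kept by their reproducibility between libraries. Each deposited peak carries the authors' reproducibility score and enrichment score, and enrichment ranked peaks within a list.

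Log2(normalized tags + 1) was quantile normalized and fitted with limma 3.58.1 with a mean-variance trend over all windows with a mean above 16 tags (2 residual degrees of freedom, prior 17.98), and over gene sums likewise (prior 21.22), with Benjamini-Hochberg adjustment over all features of the fit. Log2 differences are EKO minus WT, and their size at low windows depends on the method. Falls were larger in this fit than with edgeR at Cebpg -30184 (-2.002 against -1.70) and -29466 (-1.81 against -1.40). The same held at Cebpe -12639 (-1.44 against -1.21), while the rise at Cebpg +15084 was smaller (1.29 against 1.73). The study used DESeq2 at these thresholds. A count test was not the main test because the table holds normalized values, and edgeR 4.0.16 and DESeq2 1.42.0 on recovered tags were alternatives, beside other scalings, a pseudocount of 4, no filter, leaving out each library and the replicate number as a block. The shares of the TSS window were added after seeing the data. An exact permutation test of 2 against 2 libraries cannot go below p = 0.33. Replicates differed by more than sampling noise (chi-square per degree of freedom 2.86 in EKO and 3.00 in WT). The fit was tested on simulated data.

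For each gene the text names the tested windows nearest the TSS, with the highest mean, with the smallest p and every called window; other windows were chosen after their values were seen. For the context lists it names some of the genes with called windows, not strictly in order of p. Batf3 (log2 -1.44) and Il6 (log2 -1.51) were called lower with smaller p than Batf and Csf2ra and were passed over. Runx1, a regulator called higher (log2 1.62), was not named either. One element at these genes is not reported here. The members and all lists were chosen with earlier results of these data known. Gene bodies and sequences are from GRCm38.p6 (RefSeq), the build of the files. Promoter sequences of Cebpa, Cebpb and Cebpg were searched for the same motifs and matched only the NF-kB shape, which 50.8% of 32851 promoters hold.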

Additional observations from a re-analysis of the deposited data

How the results depend on the processing

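The number of member windows called was 5 in the fit as reported, 0 with the values as deposited, 4 with median scaling, 5 with a pseudocount of 4, 2 without the filter on low values, 5 with edgeR, 3 with DESeq2 and 0 to 3 when 1 library was left out. Over all windows, 8977 were called in the fit as reported, 521 as deposited, 9304 with median scaling and 8754 with a pseudocount of 4. Calls over all windows numbered 6800 without the filter, 9729 with edgeR and 7127 with DESeq2. Those of the fits with 1 library left out stand in the report. With the values as deposited the log2 difference of Cebpa turned to 0.019 at -717, to 0.020 at -136 and to 0.19 for the gene sum, and that of the Cebpg sum to 0.16. Over windows that do not overlap the Cebpg sum was 0.043, that of Cebpb 0.22 (0.046 as reported) and that of Cebpe -0.42, with an adjusted p of 0.0438 at a fold below 2. When 1 library was left out, log2 differences ran from -0.00101 to 0.70 at Cebpb -628, from -0.084 to 0.21 at Cebpb +29, from -0.039 to 0.55 at Cebpe -368, from -0.079 to 0.17 for the Cebpb sum and from -0.11 to 0.079 for the Cebpg sum. None of these windows or sums was called, and the ranges of the called windows stand in the report. Of the other values of single named windows under tested alternatives, 117 kept their direction and side of the threshold and 32 kept the direction but lost the call, and 9 shares of the TSS window, which have no test, kept the direction. The cause of these changes was not tested, beyond the smaller number of libraries in the fits that left 1 out.

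Same-numbered libraries of EKO and WT share only a number, with a correlation of deviations of 0.036. With the replicate number as a block 5 member windows were called, as without it, and 9442 over all windows, and the gene sums of Cebpd and Cebpe had an adjusted p of 0.0322 and 0.0381 at folds below 2.

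With 10 kb in place of 50 kb around the gene bodies, 6 SMAD4 peaks of WT and 12 p300 peaks remained at these genes. The length of listed regions was added over the 5 genes, with regions in the flank shared by Cebpa and Cebpg counted for both. The mean over libraries was 38889 bp in NeuN EKO, 34122.5 bp in NeuN WT, 28927.5 bp in Olig2 EKO, 29835.5 bp in Olig2 WT and 104404 bp in PU1 EKO nuclei. With a fold over input of at least 8 it was 28510.5 bp in NeuN EKO, 26755 bp in NeuN WT, 27431 bp in Olig2 EKO, 27850 bp in Olig2 WT and 94636 bp in PU1 EKO nuclei. With 10 kb around the gene bodies it was 24671 bp, 21004 bp, 11313 bp, 10856.5 bp and 59914 bp in the same order. In PU1 WT nuclei, where library 1 was weak throughout, these settings gave 84870 bp, 78587.5 bp and 52500 bp. The 2 libraries per group limit the precision, and how deeply the nuclei libraries were sequenced is unknown.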
